A study of Mus musculus with 2 samples.

Results

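The brush border is the carpet of microvilli on the luminal face of an absorptive enterocyte, and it carries the enzymes that finish digestion and the carriers that take up the products. This report follows 9 of its genes, of the 31053 in the count tables, in single cells of the proximal small intestine. The members were chosen by name, from the symbol that each row of the tables carries, and none of their values entered the choice. They are 5 hydrolases, Sis, Lct, Mgam, Anpep and Alpi, and 4 transporters, Slc5a1, Slc2a2, Slc2a5 and Slc15a1, and each was found once in both tables. The cells came from 2 mice of genotype VilCreER Apc fl/fl, the only group. The villin promoter restricts this tamoxifen-inducible Cre recombinase to the intestinal epithelium, where it removes both floxed copies of Apc, a brake on Wnt signalling. Each mouse received 2 injections of 2 mg tamoxifen at an interval of 24 h, and tissue was taken on day 4. Cells that stained with DAPI, a dye that enters dead cells, were sorted out before droplet capture. No mouse with intact Apc was analysed here, whether each cell had lost Apc was not analysed here, and every comparison is between cell classes of the same 2 mice.

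As background, new epithelial cells are born in crypts, where Wnt signalling keeps stem and transit-amplifying cells dividing, and they take on the absorptive programme as they move up the villus. Starch and sucrose are cut to single sugars by the paired disaccharidases sucrase-isomaltase (Sis) and maltase-glucoamylase (Mgam), and milk sugar by lactase (Lct). Glucose and galactose enter through the sodium-coupled carrier SGLT1 (Slc5a1), fructose through GLUT5 (Slc2a5), and GLUT2 (Slc2a2) passes sugars on. Aminopeptidase N (Anpep) trims peptides, PepT1 (Slc15a1) imports the short ones with protons, and intestinal alkaline phosphatase (Alpi) removes phosphate groups, also from bacterial endotoxin.

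A barcode was kept if it had over 100 genes and over 400 unique molecular identifiers (UMIs), of which less than 5% were mitochondrial and less than 10% from haemoglobin genes. This left 7941 of 9645 barcodes in mouse 1 and 6957 of 8800 in mouse 2, at medians of 4381 and 2803 UMIs. Both libraries held 24 of the same barcode sequences, 16 of them among kept cells, and each was treated as a separate cell of its library. Clusters were named from marker genes that include no member, and the members had no part in making the clusters, although they were made from other genes of the same cells. Enterocyte-like cells numbered 805 and 178 in mice 1 and 2, and comprised 4 sub-clusters in which 10 to 13 of 14 enterocyte markers were counted. The 118 and 29 crypt-like cells formed 1 cluster with 24 of 25 stem and proliferation markers, led by Olfm4, Cdca7 and Ascl2, so that stem-like and transit-amplifying-like cells were not told apart. Leukocyte-like cells, of T or innate lymphoid, plasma, B and myeloid type, numbered 6104 and 6375.

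The Sis, Lct, Mgam and Anpep starts are shown because Sis and Mgam encode sister enzymes but differed in crypt-like cells, Lct, the scarcest member, was read in the fewest sub-clusters, and Anpep was also read outside the epithelium. Each line gives the 250 bases before the RefSeq start (build GRCm38.p6, strand of the gene, 5′ to 3′). Capitals mark short words that factors of the intestinal epithelium are known to read, each searched on both strands. For the CDX factors the words were TTTATG and the related form TTTATT. For HNF4 factors the word was CAAAGT, and for the GATA family AGATAA.
Sis, chr3:72967864-72968113 (minus strand): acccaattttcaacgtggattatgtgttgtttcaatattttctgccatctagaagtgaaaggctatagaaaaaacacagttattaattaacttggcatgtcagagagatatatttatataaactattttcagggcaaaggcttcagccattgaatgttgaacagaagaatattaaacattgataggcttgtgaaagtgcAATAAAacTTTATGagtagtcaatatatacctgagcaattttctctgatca
Lct, chr1:128328319-128328568 (minus strand): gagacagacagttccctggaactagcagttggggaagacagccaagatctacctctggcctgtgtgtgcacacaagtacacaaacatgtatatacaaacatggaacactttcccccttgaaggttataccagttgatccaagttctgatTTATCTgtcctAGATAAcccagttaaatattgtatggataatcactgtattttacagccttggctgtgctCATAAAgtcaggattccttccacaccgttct
Mgam, chr6:40628581-40628830 (plus strand): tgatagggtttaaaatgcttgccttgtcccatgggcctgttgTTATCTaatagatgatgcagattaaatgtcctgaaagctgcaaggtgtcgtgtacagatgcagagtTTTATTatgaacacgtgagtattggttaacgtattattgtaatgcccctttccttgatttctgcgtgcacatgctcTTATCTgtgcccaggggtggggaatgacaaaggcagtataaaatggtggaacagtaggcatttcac
Anpep, chr7:79848211-79848460 (minus strand): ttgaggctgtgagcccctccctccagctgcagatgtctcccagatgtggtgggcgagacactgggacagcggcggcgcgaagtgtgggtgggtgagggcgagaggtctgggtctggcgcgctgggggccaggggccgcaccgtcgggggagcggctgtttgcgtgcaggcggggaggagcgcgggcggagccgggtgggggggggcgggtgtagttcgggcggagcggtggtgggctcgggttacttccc

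At least 1 of the 4 words was present before 6 of the 9 member starts, and in 39.5% of all 32851 RefSeq windows of that length. TTTATG was held by 10.8% of all windows, TTTATT by 18.1%, CAAAGT by 12.6% and AGATAA by 9.99%. Sis held TTTATG from 43 to 38 bases before the start and TTTATT on the other strand from 51 to 46. Lct held TTTATG on the other strand from 31 to 26 bases before the start and AGATAA once on each strand. Mgam held TTTATT and 2 copies of AGATAA, while Alpi, Slc2a2 and Slc15a1 held CAAAGT once each. None of these letters was found before Anpep, Slc5a1 and Slc2a5. A match describes the letters and not a bound site. The RefSeq start of Anpep lies 12849 bases inside the gene as GENCODE M21 draws it (chr7:79821803-79861059, minus strand), so the window does not cover the outer start.

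Hydrolases were low in crypt-like cells and high in enterocyte-like cells, with Mgam as the member that crypt-like cells carried most widely. Levels are given as counts per 1000000 UMIs of the class (CPM), with exact 95% Poisson intervals that cover counting error only. Sis (chr3:72888557-72967863) was at 100.3 CPM (interval 91.2 to 110.1) in the enterocyte-like cells of mouse 1 and at 276 CPM (238 to 318) in those of mouse 2. Crypt-like cells held 1 Sis UMI in each mouse. Their counts were too few for a firm ratio: it was 178-fold in mouse 1, with a counting interval of 31.8 to 7042, and 152-fold in mouse 2, with an interval of 26.9 to 6022. Sums per mouse and class were compared in edgeR, where Sis was higher in enterocyte-like cells by 7.69 ± 1.13 on the log2 scale (SE, n = 2 mice; edgeR adjusted p = 0.000437). The SE of every edgeR log2 fold change was derived from it, as its size divided by the square root of the F statistic of the test. Where crypt-like cells held no UMI, this SE does not bound the size from above.

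Mgam (chr6:40628831-40769123) was at 106 CPM (96.3 to 116) and 172 CPM (143 to 206) in enterocyte-like cells and at 46.8 CPM (37.3 to 58) and 56.4 CPM (38.3 to 80) in crypt-like cells of mice 1 and 2. The intervals of the 2 classes did not overlap in either mouse. Its log2 fold change was 1.60 ± 0.39 (SE; edgeR adjusted p = 0.00791), and no other tested member had a smaller one. In crypt-like cells Mgam was read in 51 of 118 cells (43.2%, Clopper-Pearson 95% interval 34.1 to 52.7) and in 19 of 29 (65.5%, 45.7 to 82.1), and no cell held more than 5 of its UMIs. Crypt-like cells were the deeper ones, with medians of 11880 and 18151 UMIs against 3262 and 2108. At an equal 1000 UMIs per cell, averaged over all draws, Mgam was read in 4.35% and 8.31% of crypt-like cells against 10.3% and 18.3% of enterocyte-like cells.

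The 2 sister enzymes therefore stood in different proportions in the 2 classes. Mgam made up 83 of 84 UMIs of the pair in crypt-like cells of mouse 1 (98.8%, 93.5 to 99.97) and 31 of 32 in mouse 2 (96.9%, 83.8 to 99.9). In enterocyte-like cells it made up 51.3% (48.0 to 54.6) and 38.4% (32.97 to 44.1). The crypt-like level of Mgam was 93.1-fold (61.2 to 145) and 130.3-fold (66.3 to 271) that of leukocyte-like cells, so the crypt-like level stood above that background.

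Alpi (chr1:87098002-87101606) differed most between the mice. It was at 834 CPM (807 to 861) in enterocyte-like cells of mouse 1, in 60% of them, and at 99.3 CPM (77.1 to 126) in those of mouse 2, in 23.6%. Mouse 1 was above mouse 2 in each of the 4 enterocyte-like sub-clusters, with 1105 against 126 CPM in the Apoa4-rich one and 229 against 37.9 CPM in the Ada-rich one. As a ratio the gap was narrowest in the shallowest sub-cluster, on 117 and 10 UMIs, where the Poisson intervals of the mice overlapped. Akp3, a close copy that lies on the same chromosome at chr1:87124973-87127912, was also higher in mouse 1, with 2171 UMIs in enterocyte-like cells of mouse 1 and 3 in those of mouse 2. Near copies can share reads, and both values are uncertain to that extent. Crypt-like cells held 22 Alpi UMIs in mouse 1, of which 17 were in 1 cell, and 2 in mouse 2. Even with this gap between mice the difference between classes was 5.82 ± 0.93 on the log2 scale (SE; edgeR adjusted p = 0.000705). One enterocyte-like cell of mouse 1 held 567 of the 3707 Alpi UMIs. With 1 library per mouse and 1 group, the gap between the mice has no test. The labels place both samples in the proximal small intestine and give no finer position.

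Anpep was at 32.4 CPM (27.3 to 38.1) and 78.8 CPM (59.2 to 103) in enterocyte-like cells, against 5.64 CPM (10 UMIs) and 1.82 CPM (1 UMI) in crypt-like cells. One enterocyte-like cell of mouse 1 held 29 of the 144 UMIs. Anpep was higher in enterocyte-like cells by 3.68 ± 0.67 (log2, SE; edgeR adjusted p = 0.00159). Lct (chr1:128284756-128328318) was scarce, with 21 and 13 UMIs in all enterocyte-like cells, or 4.72 and 18.98 CPM. No Lct UMI was read in crypt-like cells, and a count of 0 allows up to 3 UMIs. The enterocyte-like level was therefore at least 2.79-fold that of crypt-like cells in mouse 1 and at least 3.48-fold in mouse 2, with the floor set per library. With counting error in both classes the 95% lower limits of these ratios were 2.08 and 2.45.

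**Figure D1:**
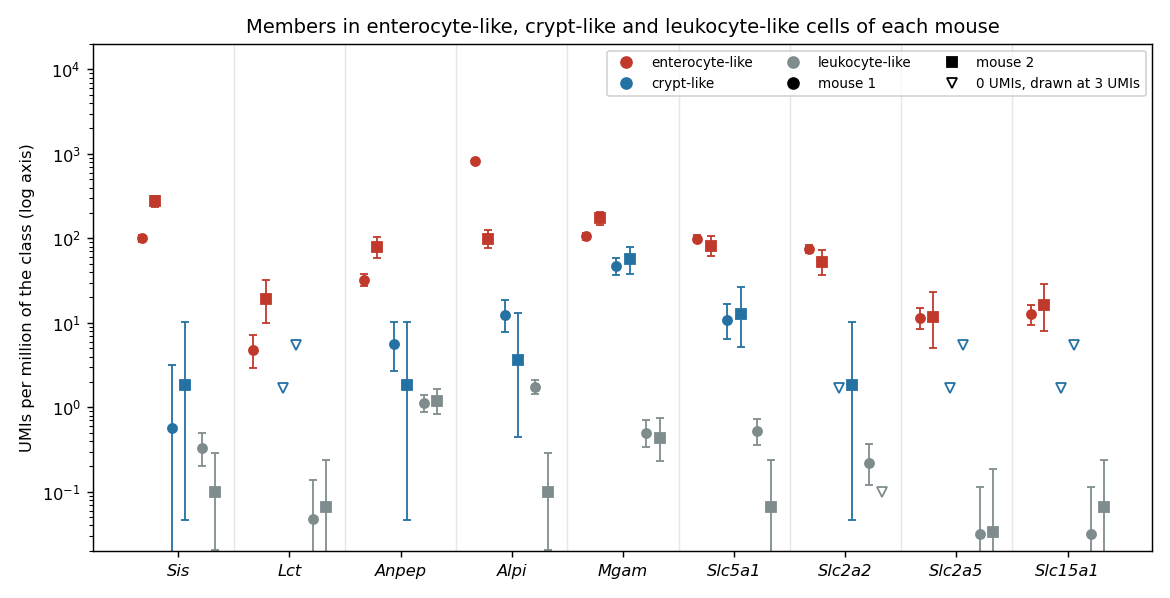
Levels of the 9 members as CPM of the class on a log axis, in enterocyte-like (red), crypt-like (blue) and leukocyte-like (grey) cells of mouse 1 (circles) and mouse 2 (squares), with exact 95% Poisson intervals; open triangles mark 0 UMIs and are drawn at 3 UMIs. Mgam has the highest crypt-like points, at 46.8 and 56.4, and Alpi the widest gap between mice, at 834 and 99.3.

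Transporters showed the same direction. Slc5a1 (chr5:33104219-33162870) was at 99.4 CPM (90.3 to 109) and 81.8 CPM (61.8 to 106) in enterocyte-like cells and at 10.7 CPM (19 UMIs) and 12.7 CPM (7 UMIs) in crypt-like cells, and the intervals of the 2 mice overlapped in both classes. It was higher in enterocyte-like cells by 3.17 ± 0.54 (log2, SE; edgeR adjusted p = 0.00102). After Mgam it was the member read in most crypt-like cells, in 10.2% and 10.3% of them. Slc2a2 (chr3:28697903-28731359) was at 75.6 CPM (67.7 to 84.1) and 52.6 CPM (36.8 to 72.8) in enterocyte-like cells, while crypt-like cells held 0 and 1 UMI. The mouse 1 level was at least 44.7-fold that of crypt-like cells (95% lower counting limit 36.1), the mouse 2 ratio was 28.9 (counting interval 4.87 to 1172), and the fitted log2 fold change was 7.02 ± 0.95 (SE; edgeR adjusted p = 0.000373).

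Slc15a1 (chr14:121459621-121505252), the peptide carrier, was at 12.6 CPM (9.51 to 16.3) and 16.1 CPM (8.02 to 28.7), with 56 and 11 UMIs, and was not read in crypt-like cells. Against the floor it was at least 7.45-fold and 2.94-fold higher in enterocyte-like cells, with 95% lower counting limits of 5.86 and 2.01. The fitted log2 fold change was 6.97 ± 1.70 (SE; edgeR adjusted p = 0.0095), a size that depends on the prior count since crypt-like cells held 0. Slc2a5 (chr4:150119283-150144169), the fructose carrier, was at 11.5 and 11.7 CPM, with 51 and 8 UMIs, was not read in crypt-like cells either, and was at least 6.78-fold and 2.14-fold higher, with 95% lower counting limits of 5.32 and 1.37. Absence from 118 and 29 crypt-like cells allows a share of cells with a UMI of up to 2.54% and 10.3%.

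Of the members, 7 of the 7 members that passed edgeR's filter on low counts were called higher in enterocyte-like cells, and 17.8% of the 8593 genes tested were called higher. Lct and Slc2a5 did not pass the filter. Members near 0 in crypt-like cells passed it through sums of other classes, so the 7 are a description and not a share of all members. For Slc15a1 these were secretory-like cells of mouse 2 (19 UMIs) and tuft-like cells (1 UMI). Both its enterocyte-like sums lay below the filter. With no filter all 9 were tested and called, at 6.57 ± 1.71 for Lct (edgeR adjusted p = 0.00126) and 6.75 ± 1.40 for Slc2a5 (edgeR adjusted p = 2.27e-05), where 11.6% of 16333 genes were called higher. These 2 fitted sizes also depend on the prior count. Taken mouse by mouse, the enterocyte-like sum was above the crypt-like sum for each of the 9 members in both mice. For Lct, Slc2a5 and Slc15a1, with no crypt-like UMI, any enterocyte-like UMI gives that direction. The share of all genes with this direction in both mice was not counted, so the 9 are a description only.

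**Figure D2:**
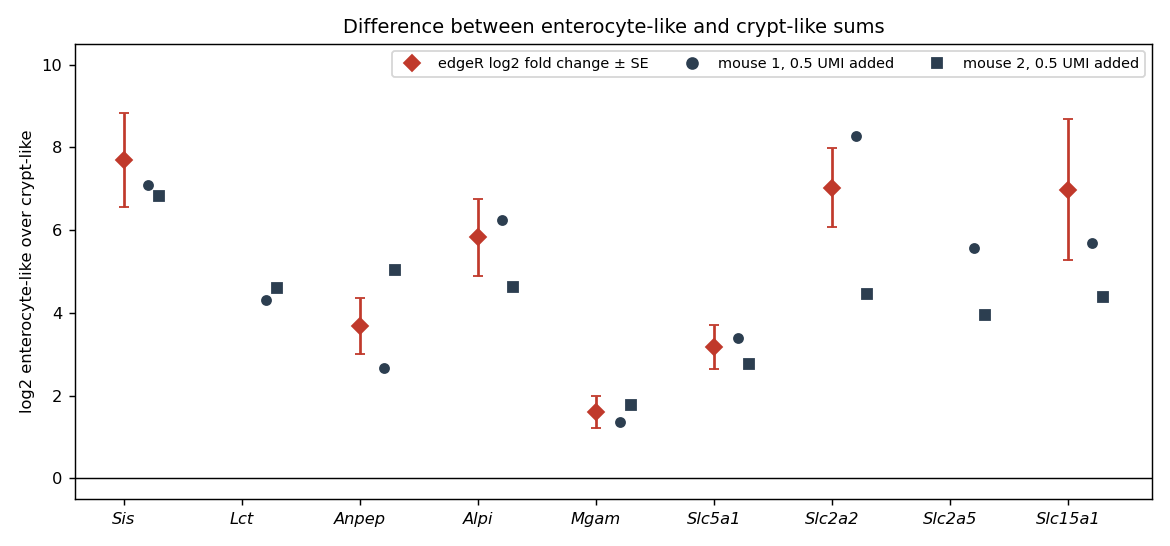
Log2 difference between enterocyte-like and crypt-like sums for each member. Diamonds are edgeR estimates for the 7 members tested, with an SE derived from the F statistic of the test. Circles and squares are the ratios of mouse 1 and mouse 2 after adding 0.5 UMI, which sets their size where crypt-like cells held 0. All points lie above 0, and Mgam lies lowest, at an estimate of 1.60.

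Within the enterocyte-like class the members did not share 1 pattern. The sub-clusters are called here by number and by genes that lead them. E1 (237 and 29 cells in mice 1 and 2) was rich in the apolipoprotein genes Apoa1 and Apoa4. E2 (185 and 41 cells) was led by Gsta1 and Lypd8 and had most of the villus-bottom list, a set of genes such as Reg3g and Lypd8 known from the lower villus. E3 (129 and 61 cells) was led by Ada and Krt20 and had most of the villus-top list. E0 (254 and 47 cells) was shallow, with medians of 804 and 764 UMIs, and was rich in the nuclear RNA Malat1, at 5902 and 17459 CPM against 386 to 1627 CPM in the other sub-clusters. Slc5a1 and Mgam were among the 10 genes that set E0 apart, at 113 and 241 CPM for Slc5a1 and at 121 and 307 CPM for Mgam, which therefore describes the sub-cluster and is not a finding.

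Lct, the member with the fewest UMIs, was read in the fewest sub-clusters over both mice. It was highest in E3, at 31.1 CPM (14 UMIs) and 56.9 CPM (9 UMIs), lower in E1, at 3.77 and 20.9 CPM, and was not read in E0 and E2 in either mouse. A count of 0 allows up to 12.1 and 65.7 CPM in the shallow E0 and up to 1.59 and 10.3 CPM in E2. Lct at its E1 level could therefore be missed in E0. Slc2a5 was highest in E1, at 19.4 CPM (13.6 to 26.8) and 26.2 CPM (8.49 to 61.0), and was down to 1 UMI and 0 UMIs in E3. In mouse 2 it was not read in E0 either. Slc15a1 was also highest in E1, at 18.8 CPM (13.1 to 26.2) and 36.6 CPM (14.7 to 75.5), although in mouse 2 that rested on 7 UMIs.

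The glucose carriers were ordered over the sub-clusters most clearly in mouse 1. There both Slc5a1 and Slc2a2 were highest in E1, at 167 CPM (149 to 187) and 120 CPM (105 to 137), and lower in E3, at 51.1 CPM (32.4 to 76.7) and 26.7 CPM (13.8 to 46.6). In mouse 2, outside E0, Slc5a1 was at 68.0, 68.9 and 75.9 CPM in E1, E2 and E3 with overlapping intervals. Slc2a2 of mouse 2 was at 62.8 CPM (32.4 to 109.7) in E1 and 94.8 CPM (53.1 to 156) in E3, intervals that also overlapped. Mgam ran from 92.6 to 162 CPM over the sub-clusters of mouse 1 and from 148 to 307 CPM over those of mouse 2, a narrow range in mouse 1 beside that of Alpi. Anpep was lowest in E3 in mouse 1, at 8.89 CPM (2.42 to 22.8), but not in mouse 2, where E3 was at 107 CPM (62.6 to 172).

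**Figure D3:**
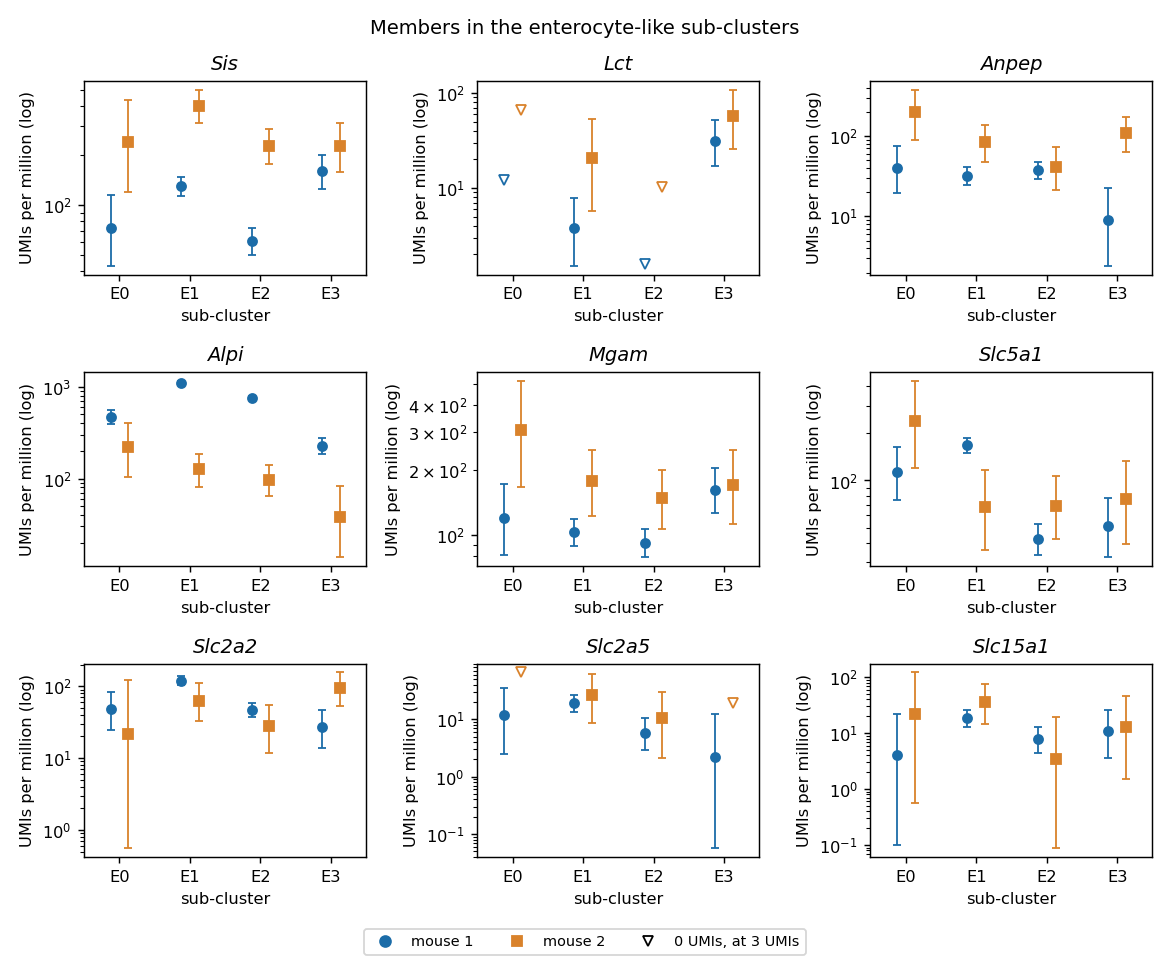
Levels of each member in the enterocyte-like sub-clusters E0 to E3, as CPM of the sub-cluster on log axes that differ between panels, in mouse 1 (blue circles) and mouse 2 (orange squares) with exact 95% Poisson intervals; open triangles mark 0 UMIs and are drawn at 3 UMIs. Lct has filled points only in E1 and E3, and Alpi of mouse 1 lies above mouse 2 in all 4.

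A second reading ordered enterocyte-like cells by the share of villus-top UMIs among the villus-top and villus-bottom lists, neither of which holds a member, and divided them into 3 equal parts within each mouse. Sis fell from 140.0 CPM (120 to 163) in the bottom part to 49.3 CPM (37.2 to 64.0) in the top part of mouse 1, and from 364 CPM (285 to 459) to 193 CPM (126 to 283) in mouse 2. The top part was thus at 0.352 of the bottom part (counting interval 0.256 to 0.479) and at 0.53 (0.325 to 0.84). Lct had 3 UMIs in the bottom and 10 in the top part of mouse 1, a ratio of 3.60 whose interval of 0.928 to 20.4 included 1, and 0 and 6 UMIs in mouse 2. Slc2a2 was at ratios of 0.741 (0.543 to 1.005) and 2.45 (0.805 to 8.19), and both intervals included 1. With 2 equal parts in place of 3, the intervals of Lct and Slc2a2 excluded 1 in both mice, and Slc2a2 went in opposite directions. Slc5a1 was lower at the top in mouse 1, at 0.745 (0.572 to 0.968), while its interval in mouse 2, 0.504 to 2.02, included 1. Mgam was level, with ratios of 1.01 (0.789 to 1.29) and 0.873 (0.49 to 1.52). Alpi and Anpep were lower at the top in mouse 1, at ratios of 0.467 (0.425 to 0.512) and 0.158 (0.0549 to 0.375), whereas their intervals in mouse 2, 0.565 to 2.24 and 0.251 to 1.94, included 1. In mouse 1 single cells held many of the UMIs of both genes. One E2 cell had 616 member UMIs, where the whole bottom part had 1512 Alpi UMIs. Counting intervals leave such cells out, and their part in these 2 ratios was not tested. The outer parts were shallower than the middle part, at medians of 2096 and 2518 against 6107 UMIs in mouse 1, and the part of depth in this order was not tested. The score and the sub-clusters did not rank Sis alike, since in mouse 1 the Ada-rich E3 was at 160.1 CPM and the Lypd8-rich E2 at 60.8 CPM.

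Sugar and peptide genes were read together in few enterocyte-like cells, and the count of such cells depended on depth. Sugar genes here are Sis, Slc5a1, Slc2a2 and Slc2a5, and peptide genes Anpep and Slc15a1. Without any correction for depth, 82 of 805 cells of mouse 1 held both, against 51.3 from the product of the shares, and 26 of 178 in mouse 2, against 17.0, ratios of 1.60 and 1.53. Deep cells hold more of every gene, so cells with at least 1000 UMIs were brought to 1000 UMIs. Averaged over all possible draws, sugar genes were read in 24.4% and 29.8% of the 626 and 132 such cells and peptide genes in 3.92% and 7.64%. Both kinds were then read in 7.43 cells against 5.997 from the product of the shares in mouse 1, a ratio of 1.24, and in 3.69 against 3.001 in mouse 2, a ratio of 1.23. A single draw gave 7 cells in mouse 1 and 1 cell in mouse 2, so the ratios at this depth rest on few cells and carry no test.

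Pairs within the sugar genes, and with Mgam or Alpi, gave ratios between 0.939 and 1.77 at the same depth. Slc5a1 and Slc2a2, the apical and the exit carrier for glucose, were read together in 7.97 cells of mouse 1 against 4.50 from the product (ratio 1.77), and Sis and Slc5a1 in 7.38 against 5.92 (1.25). Sis and Mgam gave 1.35 in mouse 1 and 1.38 in mouse 2. Alpi and Sis gave 0.939 and 1.01. Pairs of a single sugar gene and a single peptide gene averaged at most 2.39 cells, in the pairs computed, and were not read.

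Leukocyte-like cells, which should not make these proteins with the exception of Anpep in myeloid cells, gave the background. The members together were at 4.54 CPM (4.03 to 5.09) in leukocyte-like cells of mouse 1 and at 2.06 CPM (1.58 to 2.65) in mouse 2, against 1276 CPM (1243 to 1309) and 807 CPM (741 to 877) in enterocyte-like cells. Alpi alone made up 65.3% of the enterocyte-like member UMIs in mouse 1 and 12.3% in mouse 2, so the pooled level of mouse 1 is largely that of Alpi. A member UMI was read in 239 of 6104 leukocyte-like cells (3.92%, 3.44 to 4.43) and in 56 of 6375 (0.878%, 0.664 to 1.14), at median depths of 4214 and 2739 UMIs. The enterocyte-like share was 75.7% and 65.2%. In this pooled class the highest single member other than Anpep was Alpi in mouse 1, at 1.74 CPM. Plasma-like cells, the deepest at medians of 22390 and 20294 UMIs, weigh most in the pooled level of mouse 1. By class the members together were at 2.37 CPM in plasma-like, 6.64 CPM in T or innate lymphoid-like, 6.37 CPM in B-like and 25.01 CPM in myeloid-like cells of mouse 1. Alpi in mouse 1 was at 4.57 CPM in myeloid-like and 3.27 CPM in T or innate lymphoid-like cells. The mouse with the higher enterocyte-like level did not always have the higher leukocyte-like level. Alpi was higher in mouse 1 in both classes, but Sis, higher in enterocyte-like cells of mouse 2, was at 0.33 CPM (21 UMIs) in leukocyte-like cells of mouse 1 and at 0.0999 CPM (3 UMIs) in those of mouse 2.

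Levels in crypt-like cells can be read against this background. Against the pooled leukocyte-like level, the ratio intervals of Mgam, Slc5a1 and Alpi lay above 1 in both mice. Slc5a1 was 20.7-fold higher (11.1 to 37.4) in mouse 1, and in mouse 2 its leukocyte-like level rested on 2 UMIs. Alpi was 7.12-fold higher (4.29 to 11.3) in mouse 1, where 1 cell held 17 of its 22 crypt-like UMIs, and had 2 crypt-like UMIs in mouse 2. A crypt-like level above background is therefore not firm for Alpi. The single Sis UMI per mouse in crypt-like cells gave ratios to leukocyte-like cells whose intervals, 0.0413 to 10.6 and 0.347 to 227, included 1, so it could not be told from background. Anpep in crypt-like cells of mouse 2 was likewise at 1 UMI (ratio interval 0.0374 to 9.02), while in mouse 1 its interval was 2.33 to 9.85. That background includes myeloid-like cells, and without them the leukocyte-like level of Anpep was 0.183 and 0.262 CPM, against 5.64 and 1.82 CPM in crypt-like cells.

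Anpep was the exception to a common background. In myeloid-like cells it was at 16.1 CPM and 8.79 CPM and was read in 7.1% and 5.16% of cells, against 0.201% and 0.118% of all other leukocyte-like cells. It made up 24.6% (19.7 to 29.9) and 58.1% (44.9 to 70.5) of member UMIs in leukocyte-like cells, but 2.54% and 9.77% in enterocyte-like cells. These shares also depend on Alpi, which made up 65.3% and 12.3% of the enterocyte-like member UMIs. A further cluster of 159 and 61 cells, chosen after its values were seen, held more Anpep. Its 10 leading genes included Ccl17, Cd209a and Zfp366, known from dendritic cells, but it had 4 of 14 myeloid markers, none of them among those 10, and was left unnamed. Ptprc was read in 90.9% of its cells and the epithelial gene Epcam in 61.4%. Anpep was at 116 and 76.5 CPM there, read in 64.2% and 49.2% of cells at median depths of 15739 and 13876 UMIs, and Sis and Slc2a2 were not read at all. This cluster held 51.0% and 36.8% of all Anpep UMIs of kept cells, and enterocyte-like cells 24.9% and 29.2%.

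Other members were also read outside the enterocyte-like class. Secretory-like cells, a cluster of 34 and 33 cells with goblet, Paneth and enteroendocrine markers, held 19 Slc15a1 UMIs in mouse 2, or 59.4% of that gene's UMIs in the mouse, and 11 Slc2a5 UMIs, or 55%, but 1 and 2 UMIs in mouse 1. Sis there was at 33.5 CPM in 6 cells of mouse 1 and at 256 CPM in 10 cells of mouse 2, where 1 cell alone held 25 of 98 UMIs. An epithelial cluster of 86 and 28 cells, which was left unnamed because the leukocyte gene Ptprc was read in 78.9% of its cells, held 8.36% and 7.55% of all member UMIs at 584 and 342 CPM. Tuft-like cells, 30 and 22 chemosensory cells at medians of 1184 and 1058 UMIs, held the members at 750 CPM (536 to 1022) and 312 CPM (170.5 to 523), on 40 and 14 UMIs. A member UMI was read in 10 of the 30 and 6 of the 22 cells, and 1 cell of mouse 1 alone held 22 of the 40 UMIs. Mgam there was at 188 CPM (89.9 to 345) and 134 CPM (49.0 to 291), and Slc5a1 at 131 CPM (52.8 to 270.5) and 66.8 CPM (13.8 to 195), intervals that overlapped those of enterocyte-like cells. These intervals leave out the spread between cells, so levels that rest on so few cells are not firm. The part of droplets with 2 cells in these values was not tested.

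**Figure D4:**
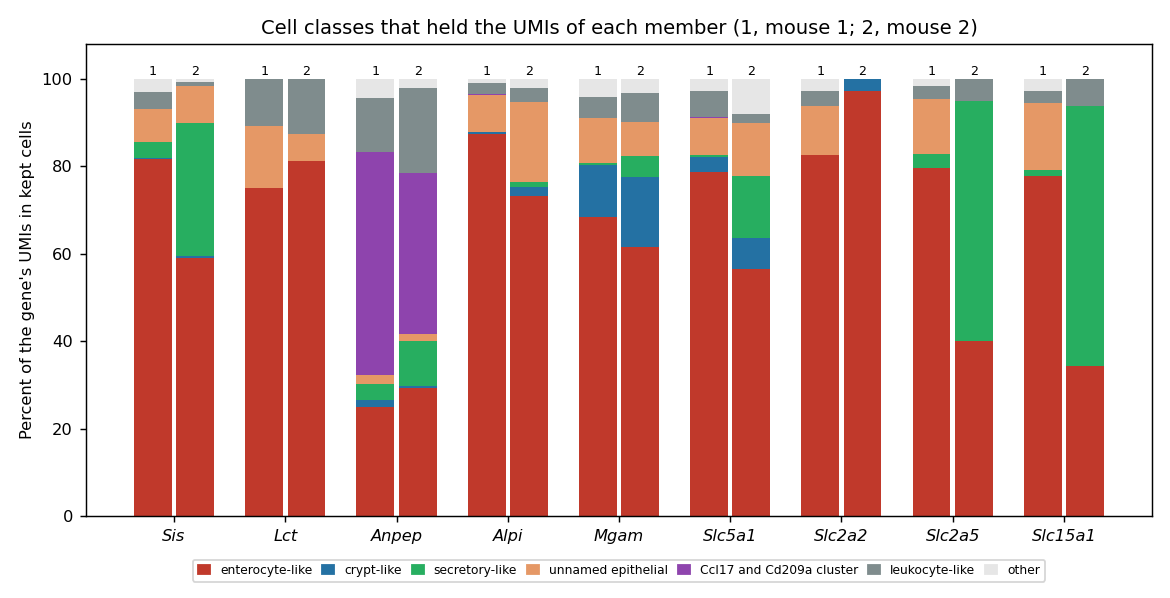
Share of each member's UMIs in kept cells that lay in each class, in percent, with the bar of mouse 1 to the left of that of mouse 2. Enterocyte-like cells (red) held 24.9% and 29.2% of Anpep, the least of any member in both mice, and secretory-like cells (green) held 55% of Slc2a5 and 59.4% of Slc15a1 in mouse 2.

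Other genes of the enterocyte surface were counted over lists that hold no member. The filter on low counts acts here as it does on the members. Genes near 0 in crypt-like cells pass it through sums of other classes, enterocyte-like ones among them. Counts and medians over those tested therefore lean upward and are descriptions. They stand beside the 17.8% of all genes tested that were higher. Of 18 other brush-border hydrolases 9 were tested, 7 were higher in enterocyte-like cells and none lower, with a median log2 fold change of 6.77, where the median over all genes tested was -0.03. The named ones were Enpp3 (8.29 ± 1.02, edgeR adjusted p = 0.00023), the trehalase Treh (8.08 ± 1.23, edgeR adjusted p = 0.000689) and Akp3 (6.44 ± 1.502, edgeR adjusted p = 0.00654). Crypt-like cells held 0 UMIs of Enpp3 and Treh in both mice, so those sizes depend on the prior count. Enpp3 is also in the villus-top list. The peptidase Dpp4 and the nucleotidase Nt5e did not pass, at 2.05 ± 0.78 and -1.17 ± 1.23.

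Of 29 other transporters 13 did not pass the filter and 16 were tested, of which 12 were higher and none lower, beside 17.8% higher over all genes, with a median log2 fold change of 4.05. The largest differences were those of the iron exporter Slc40a1 (9.01 ± 0.94, edgeR adjusted p = 6.8e-05), which had 331 and 162 CPM in enterocyte-like cells and 1 UMI in crypt-like cells of mouse 1, of the anion exchanger Slc26a3 (8.10 ± 1.49, edgeR adjusted p = 0.00209) and of the folate carrier Slc46a1 (7.41 ± 0.76, edgeR adjusted p = 8.4e-05). Slc26a3 had 0 UMIs in crypt-like cells, and its size depends on the prior count. The lactate carrier Slc16a1 and the amino acid carrier chain Slc3a2, both used by many cell types, did not pass, at 0.14 ± 0.61 and 0.96 ± 0.63.

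Genes that build the microvillus were mostly higher too. Of 15 listed, 14 were tested and 13 were higher, beside 17.8% over all genes, with a median log2 fold change of 2.91. They included the scaffold gene Pdzk1 (9.63 ± 1.08, edgeR adjusted p = 0.000196), the actin bundler Espn (5.99 ± 0.45, edgeR adjusted p = 1.56e-05) and the protocadherin gene Cdhr5 (4.81 ± 0.59, edgeR adjusted p = 0.000167). Pdzk1 had 0 UMIs in crypt-like cells, so its size depends on the prior count. The myosin gene Myo7b was tested and did not pass, at 0.71 ± 0.45.

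Transcription factors of the enterocyte were split. Of 16 listed, 15 were tested, and Prdm1 did not pass the filter. Of those tested 5 were higher, beside 17.8% over all genes, none was lower and 10 did not pass, with a median log2 fold change of 0.50. Creb3l3 (9.10 ± 1.00, edgeR adjusted p = 0.00013), Klf4 (5.15 ± 0.60, edgeR adjusted p = 0.000119) and Maf (4.31 ± 0.69, edgeR adjusted p = 0.000719) had the largest differences, and Klf4 and Creb3l3 are also in the villus-top list. Creb3l3 had 0 UMIs in crypt-like cells, so its size depends on the prior count. For the factors whose letters were searched, Hnf4g was higher by 3.79 ± 0.56 (edgeR adjusted p = 0.000426), with 86.8 and 185 CPM in enterocyte-like against 10.7 and 10.9 CPM in crypt-like cells. Cdx2 was at 44.8 and 49.6 CPM in enterocyte-like and at 88.0 and 81.9 CPM in crypt-like cells, a log2 difference of -0.68 ± 0.43 that did not pass. Cdx1 had the lowest value of the list, at -1.12 ± 0.41 (edgeR adjusted p = 0.0503), just short of the threshold. Hnf4a was at 0.50 ± 0.31, Gata4 at 0.50 ± 0.42 and Gata6 at 0.26 ± 0.45, and none of them passed.

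The genes with the pattern most like that of the members were sought over 20 class sums, 10 classes in each of 2 mice, by Pearson's r with the mean log2(CPM + 1) of the members. They were Cideb (r = 0.982), which encodes a protein of lipid droplets, H2-Q2 (0.965), a class I histocompatibility gene, Sult1d1 (0.962), a sulfotransferase, Slc6a8 (0.961), the creatine carrier, and Rec8 (0.954), a cohesin gene. Cideb was at 244 and 247 CPM in enterocyte-like and at 3.38 and 5.46 CPM in crypt-like cells. The sums of 1 mouse share a library and differ in depth between classes, and the correlations are descriptions.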

How the data were processed

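Single-cell RNA-seq of 2 mice of 1 group was analysed from the whole-number UMI counts that the authors deposited per gene and barcode, made with Cell Ranger 6.1.2 from 10x 3′ libraries aligned to mm10. Depth is the UMI total, 85670711 in mouse 1 and 38716743 in mouse 2. The cell filters are given in the report. Kept cells were clustered with Seurat 5.3.0 (RPCA integration, 2000 variable features without the members, 30 dimensions, resolution 0.8), and epithelial cells were clustered again. Clusters were named from fixed markers, with thresholds for naming set after leading genes were seen. The planned transit-amplifying-like class became a combined crypt-like cluster. Doublets were not called, and cells with a Ptprc UMI were left out as an alternative.

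UMIs were summed per class and mouse over enterocyte-like, crypt-like, secretory-like and tuft-like cells and compared with edgeR 4.0.16 (TMM, filterByExpr, quasi-likelihood, Benjamini-Hochberg over all genes, threshold 0.05). DESeq2 1.42.0 was an alternative. Sums with the same number come from the same mouse, so the numbers pair them by design, and the deviations of crypt-like and enterocyte-like sums correlated at r = 0.313, with 0.0736 to 0.252 over the other pairs of classes. The edgeR comparison has 2 mice, so its p-values rest on the spread between 2 animals, and intervals (95%, Poisson, binomial or conditional binomial) cover counting error only. Floors are 3 counts per library. The members are named in every comparison. Of each other list the 3 genes with the largest change past the threshold and 1 direction in both mice were named, plus Akp3 and, chosen after their values were seen, the factors whose letters were searched, the genes named as not passing and the Anpep-rich unnamed cluster. Some genes and a motif that these rules name are not reported here. The 5 genes of most like pattern had at least 100 UMIs. The members and lists were chosen with earlier results of these data known.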

Additional observations from a re-analysis of the deposited data

Results flagged for a closer look

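The members were also read in barcodes that the main comparisons did not use. The 1412 barcodes of mouse 1 and 1810 of mouse 2 with 5% or more mitochondrial UMIs held 510 and 447 member UMIs. That is a level of 183 to 218 CPM and of 130.3 to 157 CPM (95% Poisson intervals), against 88.7 CPM and 28.0 CPM over kept cells of all classes. In the main setting these barcodes were not assigned to classes, and the part of their class make-up in the difference was not tested. Those with under 10% mitochondrial UMIs that met the other filters were classed in 1 of the alternatives below. In mouse 2 they held 15 Lct UMIs and 91 Anpep UMIs, and in mouse 1 they held 131 Mgam UMIs.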

How the results depend on the processing

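Each tested member kept its call and direction in 69 of 69 pairs of a member and an alternative with a test, over 10 alternatives, with adjusted p up to 0.023. Under a replicate block for the mouse, the pairing that the design gives, 7 members were called, as without it, and the block changed no other call of a member. Of all genes, 1953 of 8593 were then called higher. The number called was 9 with no filter on low counts, 8 with the compared classes alone, and 6 where epithelial-like cells with a Ptprc UMI were left out, since Slc15a1 then did not pass the filter. In these settings 11.6% of 16333 genes, 24.9% of 7935 genes and 1546 of 6751 genes were called higher. Without the shallow sub-cluster E0, an alternative chosen after seeing the data, 7 were called, beside 1549 of 8575 genes. Over all genes, of which 6751 to 16333 were tested, 1446 to 1978 were higher and 1281 to 1834 lower. With 1 mouse left out, log2 ratios have no test, and ran from 6.83 to 7.09 for Sis, 4.63 to 6.24 for Alpi, 4.37 to 5.70 for Slc15a1, 4.45 to 8.27 for Slc2a2 and 2.66 to 5.03 for Anpep. The wide ranges of Slc2a2 and Anpep rested on 0 and 1 crypt-like UMIs for Slc2a2 and on 10 and 1 for Anpep. Counting intervals of the Anpep ratio, 3.04 to 12.2 and 7.45 to 1743 on the linear scale, overlapped. The part of counting error in these ranges was not tested. Mgam ran from 1.37 to 1.76 and Slc5a1 from 2.76 to 3.38.

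Without leukocyte-like cells that held an Epcam UMI, the members were at 5.24 CPM in mouse 1 and 2.77 CPM in mouse 2. With the villus score divided into 2 equal parts in place of 3, the ratio of top to bottom in mouse 1 was 0.644 for all members, 0.532 for Sis and 0.604 for Alpi. The part of the single Alpi-rich cell of mouse 1 in the ratios of Alpi and of all members was not tested. Lct was then at 3.99 (counting interval 1.40 to 13.9) in mouse 1 and 4.52 (1.13 to 26.0) in mouse 2. Slc2a2 was at 0.762 (0.606 to 0.955) and 2.11 (1.04 to 4.40), so its direction differed between the mice. Slc5a1 of mouse 1 was at 0.826 (0.679 to 1.003), an interval that included 1. The ratio of observed to expected co-detection was 1.40 and 0.423 in 1 draw of 1000 UMIs, 1.24 and 1.80 at 2000 UMIs, 1.60 and 1.53 without thinning, 1.56 and 0.424 without cells that held a Ptprc UMI, and 1.24 and 1.23 averaged over draws, a measure chosen after seeing the data. The causes of these differences were not tested. Depth limits Lct, Slc2a5 and Slc15a1, which rested on 8 to 56 UMIs per mouse, and crypt-like cells of mouse 2, of which there were 29.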
